A study of Mus musculus with 8 samples.

Results

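The genes described here mark neural progenitors, neural crest cells, pluripotent cells and the surface of tumor stem cells. They were taken as a list of 40 gene symbols, and a gene was read from the brightest transcript cluster, that is the brightest probe group of the array, that carries its symbol alone. Of the 40, 39 were measured, each by a single cluster, out of 19938 genes and 35556 transcript clusters on the array. No cluster carries the symbol of Hmga1 alone, and that gene was not analysed here.

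RNA came from Neuro2a, an established mouse neuroblastoma line of AJ background, and was hybridized to 8 Affymetrix mouse gene arrays. The anchorage dependent (AD) phenotype, on 4 arrays, was attached cells in medium with fetal bovine serum. The anchorage independent (AI) phenotype, on 4 arrays, was anoikis-resistant tumorspheres in serum-free medium for neural stem cells supplemented with EGF, bFGF plus heparin. Anoikis is the cell death that follows detachment. The methods speak of replicate hybridizations, so the spread among the 4 arrays of a phenotype may be technical. Both phenotypes stem from 1 cell line, and attachment, serum and growth factors change together between them, so their parts in a difference cannot be told apart.

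Neuroblastoma arises from the sympathoadrenal branch of the neural crest, a migratory embryonic population that also gives rise to glia and pigment cells. Neural stem cells and radial glia of the brain carry nestin and vimentin filaments and rely on Sox and Pax factors and on the RNA-binding Musashi proteins. Tumor cells grown as spheres in neural stem cell medium are often examined for such markers, above all for CD133, the product of Prom1.

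Prom1, which encodes the pentaspan membrane glycoprotein CD133, and Klf4, a zinc finger factor used in reprogramming to pluripotency, were the 2 members called, and both were lower in AD cells. Many other markers either had bright signals whose difference between the phenotypes was bounded within narrow limits, such as Vim, Cd24a, Msi1 and Sox11, or were under the median of all 8 arrays, such as Sox2, Fabp7, Nanog, Kit and Cd44. Pax3, Zeb1, Zeb2, Abcg2 and Pax6 passed the adjusted p but differed by less than 1.5-fold.

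The promoters of Prom1 and Klf4 are shown because only these members were called. They are the 250 bases before the start site in RefSeq on GRCm38.p6, with matches to 3 motifs in capitals on either strand. The first is CACCTG, which reads CAGGTG on the other strand and is an E-box that ZEB and SNAI repressors bind. The second is CACGTG, the E-box of MYC and MAX. The last is GGGCGG, which reads CCGCCC on the other strand and is the GC box of SP and KLF factors.
Prom1, chr5:44101737-44101986, minus strand: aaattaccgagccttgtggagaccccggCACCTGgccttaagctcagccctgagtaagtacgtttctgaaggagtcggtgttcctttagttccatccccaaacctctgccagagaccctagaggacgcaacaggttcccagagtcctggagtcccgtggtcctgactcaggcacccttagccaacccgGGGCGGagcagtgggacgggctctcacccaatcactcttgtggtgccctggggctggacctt
Klf4, chr4:55532476-55532725, minus strand: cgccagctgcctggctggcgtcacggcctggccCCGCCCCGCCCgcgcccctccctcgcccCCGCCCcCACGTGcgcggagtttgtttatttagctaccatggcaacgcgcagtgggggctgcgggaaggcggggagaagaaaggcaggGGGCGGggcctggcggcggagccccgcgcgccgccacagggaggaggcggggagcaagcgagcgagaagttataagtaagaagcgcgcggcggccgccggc

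The Prom1 window holds 1 CACCTG and 1 GC box and no CACGTG, and it belongs to the more distal of 2 start sites in the table. A window before the other start, which is not shown, holds none of the motifs. The Klf4 window holds 4 GC boxes, of which the first and second overlap, and 1 CACGTG. Of 32851 windows of the same length in the table, 17.2% hold CACCTG, 32.7% the GC box and 6.02% CACGTG. These matches describe the letters of the windows and not binding, and whether the motifs bear on the difference between the phenotypes was not tested.

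The deposited values are log2 signals after GCRMA background correction and normalization by the authors, and the phenotypes were set against each other by limma on every transcript cluster, with p-values adjusted by Benjamini-Hochberg. A call takes both an adjusted p under 0.05 and a difference of at least 1.5-fold, and a ratio is AD over AI on the log2 scale. The table holds no detection p, so the median signal of each array, 5.82 to 5.92 log2 in the AD phenotype and 5.92 to 5.99 log2 in the AI phenotype, served as a mark of dim signal. Of the clusters 3.93% were called, 1.39% higher and 2.53% lower in AD cells, and 18.1% passed the adjusted p at any fold. Of the 1396 called clusters, 64.5% were lower in AD cells, against 47.0% of 1378 with array medians set equal (median centring). Among the 9 measured markers of sympathoadrenal neuroblasts, 3 were called higher in AD cells, Dbh, Phox2a and Th, and none lower. At any fold 5 of the 9 passed the adjusted p toward AD cells and 2, Gata2 and Chgb, toward AI cells. All 9 lay above the median of all arrays. Of 26 measured markers of glia, fibroblasts, endothelium, immune cells, melanocytes and epithelium, 22 lay below it in all arrays and 3 above it, and none was called (0 also in an analysis of variance without moderation, and 5 at an unadjusted p under 0.05, none of them by 1.5-fold). At any fold 1 of the 26, the epithelial marker Krt8, passed the adjusted p, toward AI cells (log2 ratio -0.46, limma adjusted p = 0.0461). AD replicate 4 was the highest AD array for 20 of the 39 members and the lowest for 6. It also had the highest median of the AD arrays, 5.92 log2. The share over all genes was not computed, so whether these counts are particular to the members was not tested.

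The call fell on 2 of the 39 members, both lower in AD cells, and left 37 uncalled. Among all genes 4.41% were called, 2.02% higher and 2.4% lower. At an unadjusted p under 0.05, 8 members had a positive ratio and 4 a negative one, none of the 8 by 1.5-fold. The share of all genes at that threshold was not computed, for this or any other such count. No lean of the members is therefore read from these counts. The analysis of variance also called 2 lower and 0 higher. At an adjusted p under 0.05 and any fold, 3 members passed with a positive ratio and 4 with a negative one, 7 of 39 beside 21.7% of all genes (11.0% toward AD cells and 10.7% toward AI cells). That balance depends on the scaling, since 6 passed with a positive ratio and 4 with a negative one both after quantile normalization and after median centring. The 4 AD arrays and the 4 AI arrays did not overlap for 9 members, beside 26.9% of all genes. These shares are near those of all genes and say nothing particular about the members as a set. The median log2 ratio was 0.04 over the members and 0.01 over all genes. In RNA from whole cultures, fewer cells that express a gene and less RNA per cell cannot be told apart.

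Of the 39 members, 17 lay above the array median on all 8 arrays (43.6%, beside 50.9% of all genes), and 6 of these 17 passed the adjusted p. A further 19 lay below it on all 8 arrays, and 3, Sox1, Sox3 and Snai1, lay across it. The median is a mark of dim signal and not a detection limit. For a gene below it the signal may be a bound rather than a level, and a ratio near 0 does not show equal expression. The plot of all members by class shows this division into bright and dim genes.

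**Figure D1:**
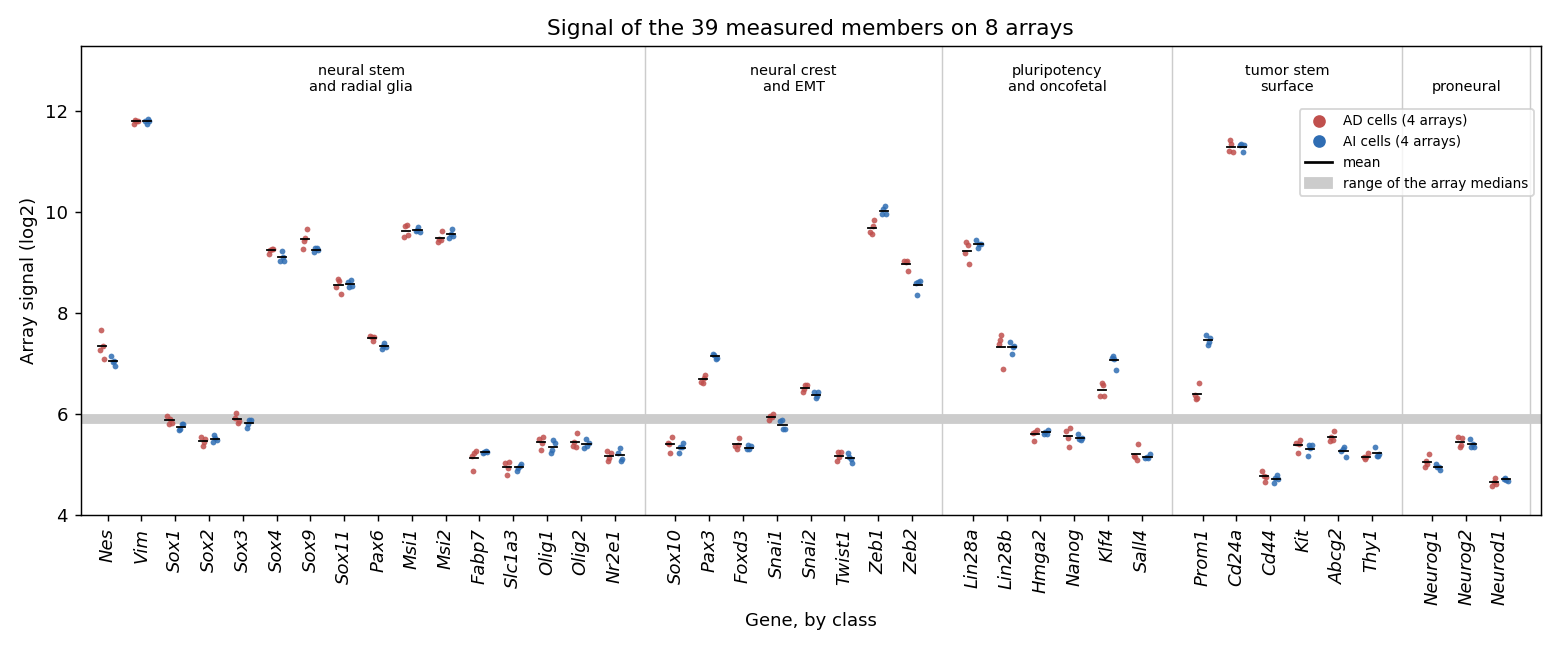
Array signal (log2) of the 39 measured members, by class, with AD cells left of AI cells; each dot is 1 of 4 arrays per phenotype and the bars are means. The grey band is the range of the array medians, 5.82 to 5.99 log2, and 19 members lie below the median of every array.

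Among the members that have been used as surface markers to isolate tumor stem cells, Prom1 had the largest difference. Some related surface markers outside the member list, described below, differed more. The AD arrays had 6.38, 6.30, 6.32 and 6.61 log2, and the AI arrays had 7.56, 7.36, 7.43 and 7.51 log2. The highest AD array, replicate 4, lay well below the lowest AI array, so the phenotypes did not overlap. The signal of Prom1 (transcript cluster 10529824) averaged 6.40 ± 0.14 log2 in the AD phenotype and 7.46 ± 0.09 log2 in the AI phenotype (SD, n = 4 each). It was 2.09-fold lower in AD cells, a log2 ratio of -1.06 (standard error 0.08, 95% interval -1.24 to -0.88, adjusted p = 4.96e-05 from limma). This was the largest difference among the 39 members, and it remained called under all alternatives tried, with a ratio of -1.13 to -1.03 when single arrays were left out.

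Abcg2, the efflux transporter behind the side population of dye-excluding cells, went the other way at a dim signal. It had 5.47, 5.54, 5.48 and 5.67 log2 on the AD arrays, and 5.26, 5.30, 5.34 and 5.15 log2 on the AI arrays. The arrays of the phenotypes did not overlap, but all 8 lay below the array medians. The log2 ratio was 0.28 (limma adjusted p = 0.0191, standard error 0.07), a difference of 1.21-fold that was not called. It lost the adjusted p without AI replicate 1, without AI replicate 4 and with the replicate number as a block.

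Cd24a, a glycosylphosphatidylinositol-anchored sialoglycoprotein of immature neurons, had a bright signal in both phenotypes with no difference past the test (limma adjusted p = 0.998). Its signal was 11.30 ± 0.11 log2 in the AD phenotype and 11.30 ± 0.08 log2 in the AI phenotype (SD, n = 4 each), with a 95% interval of -0.16 to 0.16 for the log2 ratio. Cd44, the hyaluronan receptor, Kit, the receptor of stem cell factor, and Thy1, a surface protein of neurons and mesenchymal cells, lay below the array median on every array. The signal of these 3 spanned 4.65 to 5.48 log2 in the AD phenotype and 4.63 to 5.39 log2 in the AI phenotype, and none passed the adjusted p.

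The pluripotency class was led by Klf4. It had 6.35, 6.61, 6.58 and 6.36 log2 on the AD arrays, and 7.12, 7.16, 7.09 and 6.88 log2 on the AI arrays. Each AD array lay below each AI array. Klf4 (transcript cluster 10513008) was 1.50-fold lower in AD cells, on a ratio of -0.59 (standard error 0.09, 95% interval -0.78 to -0.39, adjusted p = 0.00186 from limma). The value lies at the fold threshold: the gene was under 1.5-fold after quantile normalization (-0.53), after median centring (-0.51), with array weights (-0.58) and without AD replicate 1 (-0.54), AD replicate 4 (-0.55), AI replicate 1 (-0.57), AI replicate 2 (-0.55) or AI replicate 3 (-0.58), while its adjusted p stayed under 0.05 in each.

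Lin28a and Lin28b, RNA-binding proteins that block maturation of let-7 microRNAs and of which Lin28b is an oncogene of neuroblastoma, were well above the array medians in both phenotypes. Lin28a had 9.20, 9.42, 9.36 and 8.97 log2 in AD cells, and 9.45, 9.29, 9.38 and 9.37 log2 in AI cells. Lin28b had 7.39, 7.46, 7.56 and 6.90 log2 in AD cells, and 7.43, 7.19, 7.33 and 7.35 log2 in AI cells. AD replicate 4 was the lowest of the 8 arrays for both genes, and the phenotypes overlapped. The log2 ratios were -0.14 for Lin28a (adjusted p = 0.390 from limma) and 0.00 for Lin28b (adjusted p = 0.991), with 95% intervals of -0.35 to 0.08 and -0.29 to 0.30. Without AD replicate 4 the log2 ratio of Lin28b was 0.14.

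Nanog and Sall4, transcription factors of the pluripotent state, and Hmga2, an architectural chromatin protein that let-7 represses, were below the array median on all arrays. They spanned 5.09 to 5.72 log2 in the AD phenotype and 5.12 to 5.69 log2 in the AI phenotype. Of the 6 measured genes of this class, 1 was called and the other 5 did not pass the adjusted p.

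In the neural crest class none of 8 genes was called (0 also by the analysis of variance), and 5 had an unadjusted p under 0.05, none of them by 1.5-fold. Pax3, a paired-box factor of the neural crest and the dorsal neural tube, came closest. It had 6.64, 6.62, 6.72 and 6.78 log2 on the AD arrays, and 7.20, 7.18, 7.09 and 7.12 log2 on the AI arrays. The phenotypes were clearly apart, with a narrow spread in each. Pax3 was 1.37-fold lower in AD cells, on a ratio of -0.46 (standard error 0.06, 95% interval -0.58 to -0.33, adjusted p = 0.000722 from limma).

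Zeb1 and Zeb2, zinc finger repressors that bind E-boxes and act in neural crest cells and in the transition of epithelia to mesenchyme, moved in opposite directions. Zeb1 had 9.62, 9.58, 9.73 and 9.84 log2 on the AD arrays, and 9.96, 10.07, 10.12 and 9.96 log2 on the AI arrays. Zeb2 had 9.04, 9.02, 9.03 and 8.84 log2 on the AD arrays, and 8.59, 8.37, 8.61 and 8.64 log2 on the AI arrays. Zeb1 was thus lower on each AD array than on any AI array, and Zeb2 higher on each. The log2 ratio was -0.33 for Zeb1 (limma adjusted p = 0.0121, standard error 0.07) and 0.43 for Zeb2 (limma adjusted p = 0.00496, standard error 0.08), a 1.26-fold decrease and a 1.34-fold increase. In AD replicate 4 both genes lay nearer to the AI values than in the other AD arrays. Without that array the ratio was -0.38 for Zeb1 and 0.47 for Zeb2, and both passed the adjusted p under each alternative.

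Snai1, Snai2 and Twist1, the other factors of epithelial to mesenchymal transition in the list, did not pass. Snai2 had 6.44 to 6.57 log2 in the AD phenotype and 6.32 to 6.44 log2 in the AI phenotype, for a ratio of 0.13 in log2 (limma adjusted p = 0.141), and passed after quantile normalization and after median centring. Snai1 lay across the array medians at a ratio of 0.16 in log2 (limma adjusted p = 0.129). Twist1, Sox10, the factor of crest-derived glia, and Foxd3, an early crest factor, were below the median on every array, at 5.06 to 5.55 log2 in the AD phenotype and 5.03 to 5.42 log2 in the AI phenotype.

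The neural stem and radial glia class held 16 genes, of which none was called (0 also by the analysis of variance, and 4 at an unadjusted p under 0.05, all toward AD cells and none by 1.5-fold). The share of all genes at that unadjusted p was not computed, so no lean of the class is read from this count. Pax6, a factor of radial glia and neuronal progenitors, was the only gene of the class past the adjusted p on the values as deposited. With other scalings Sox1 also passed, at a ratio of 0.20 both after quantile normalization and after median centring, against 0.13 as deposited. Pax6 had 7.55, 7.53, 7.44 and 7.53 log2 on the AD arrays, and 7.30, 7.35, 7.40 and 7.33 log2 on the AI arrays, without overlap. The log2 ratio was 0.17 (limma adjusted p = 0.0462, standard error 0.05), a difference of 1.13-fold that lost the adjusted p with trended moderation and with the replicate number as a block, and when any single array was left out.

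Nes, the intermediate filament gene of neural stem cells, varied among AD arrays, with 7.28, 7.66, 7.35 and 7.09 log2 there, and 7.15, 7.03, 7.05 and 6.96 log2 in AI cells. AD replicate 4 lay within the AI range. The log2 ratio was 0.30 (standard error 0.11, adjusted p = 0.0965 from limma), so the gene did not pass. Single AD arrays moved it in both directions, since the ratio was 0.19 without AD replicate 2 and did not pass, and 0.38 without AD replicate 4 and passed. It also passed after quantile normalization (0.33) and with array weights (0.30).

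Sox9, a factor that keeps neural stem cells and is also active in the neural crest, had 9.27, 9.44, 9.50 and 9.66 log2 in AD cells, and 9.21, 9.29, 9.29 and 9.26 log2 in AI cells. The lowest AD array lay within the AI range, and the log2 ratio of 0.21 did not pass (adjusted p = 0.114 from limma). It passed after median centring (0.28) and without AD replicate 1 (0.27), and was 0.14 without AD replicate 4, which did not pass. Sox4, which with Sox11 acts in new neurons and in neuroblastoma, had a ratio of 0.14 in log2 (limma adjusted p = 0.151).

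For several bright genes of this class the difference was bounded within narrow limits. Vim, the vimentin gene, had 11.81 ± 0.03 log2 in the AD phenotype and 11.81 ± 0.04 log2 in the AI phenotype (SD, n = 4 each), with a 95% interval of -0.12 to 0.10 for the log2 ratio. The interval was -0.16 to 0.13 for Msi1 and -0.22 to 0.08 for Msi2, the Musashi RNA-binding proteins, and -0.19 to 0.14 for Sox11. All of these intervals lie inside 1.5-fold. After median centring the sign of the ratio turned for these 4 genes, to 0.07 for Vim, 0.06 for Msi1, 0.01 for Msi2 and 0.05 for Sox11. Over all classes the interval lay inside 1.5-fold for 36 of the 39 members, the others being Prom1, Klf4 and Zeb2. The 36 include the 19 members below the array median on all arrays, for which a narrow interval does not show equal expression.

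Of Sox1, Sox2 and Sox3, factors of neural stem cells, only Sox2 was dim on all arrays. Sox2 lay at 5.37 to 5.54 log2 in the AD phenotype and at 5.45 to 5.59 log2 in the AI phenotype, below the median of every array. Sox1 and Sox3, its close relatives, lay at 5.81 to 6.02 log2 in the AD phenotype and at 5.69 to 5.89 log2 in the AI phenotype, around the medians. The radial glial genes Fabp7, a fatty acid binding protein, and Slc1a3, a glutamate transporter, were also below the median, as were Olig1 and Olig2 of the oligodendrocyte lineage and Nr2e1, an orphan nuclear receptor of adult neural stem cells. These 5 genes spanned 4.80 to 5.63 log2 in the AD phenotype and 4.88 to 5.51 log2 in the AI phenotype. Neurog1, Neurog2 and Neurod1, helix-loop-helix factors that commit progenitors to neurons, spanned 4.58 to 5.54 log2 in the AD phenotype and 4.67 to 5.51 log2 in the AI phenotype and were below the median throughout. None of the 3 was called (0 also by the analysis of variance and 0 at an unadjusted p under 0.05).

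**Figure D2:**
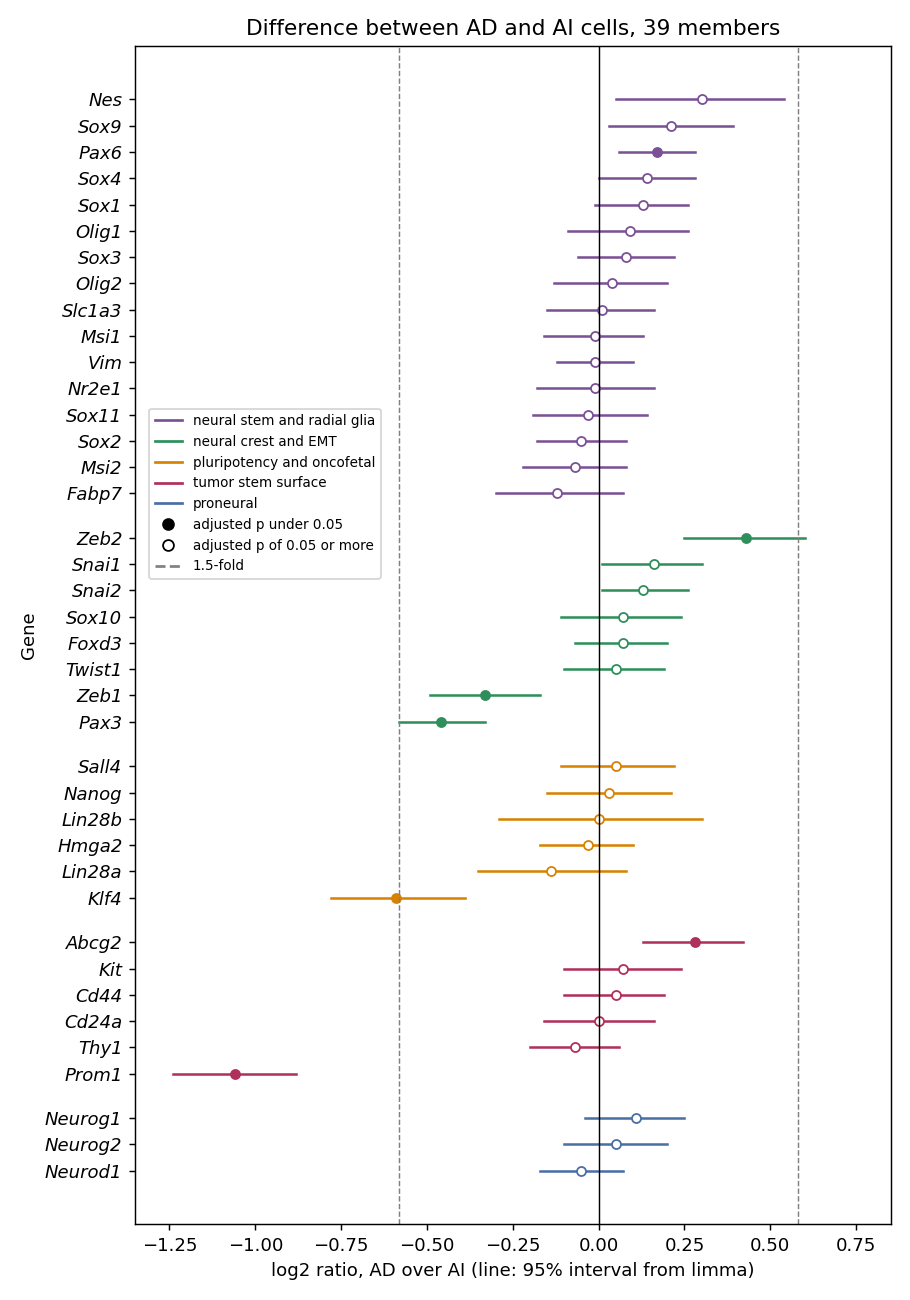
Log2 ratio of AD over AI for the 39 members, by class, with the 95% interval from limma; filled points have an adjusted p under 0.05 and dashed lines mark 1.5-fold. Prom1 at -1.06 and Klf4 at -0.59 lie at or beyond the lower line, and no member lies beyond the upper one.

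**Figure D3:**
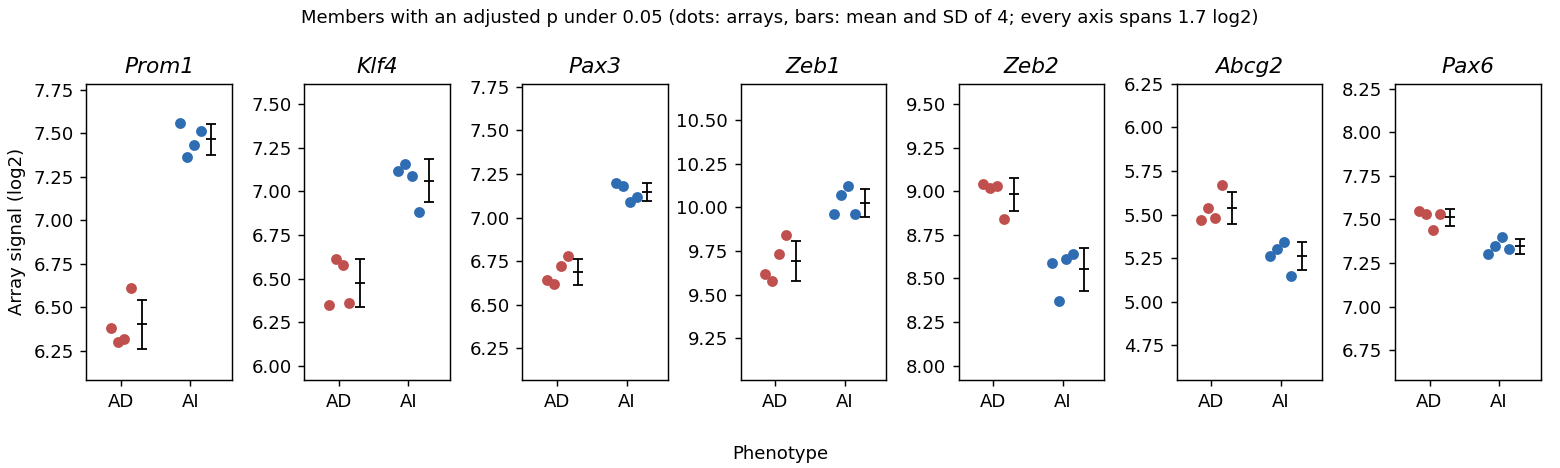
Array signal (log2) of the 7 members with an adjusted p under 0.05, with AD cells left of AI cells, dots for arrays and bars for mean and SD of 4 arrays. In none of the 7 do the phenotypes overlap, and the gap is widest for Prom1, with 6.40 log2 as the AD mean and 7.46 log2 as the AI mean.

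Other genes of the same cell states were read from 5 lists of related genes, 202 measured of 213, of which 9 were higher in AD cells, 6 were lower and 187 were not called, beside 2.02% of all genes called higher and 2.4% called lower. The adjusted p of the 15 called genes lay between 4.71e-08 for Tnc and 0.002 for Hmgn5 (limma). At any fold, 28 passed the adjusted p with a positive ratio and 20 with a negative one, 48 of 202 beside 21.7% of all genes. The median log2 ratio of these lists lay between 0.01 and 0.05, beside 0.01 over all genes.

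Of 43 related genes of neural stem cells and glial progenitors, 2 were lower in AD cells and none was higher (0 also by the analysis of variance, and 4 toward AD cells at an unadjusted p under 0.05, none by 1.5-fold). Tnc, the matrix glycoprotein tenascin C of stem cell niches, averaged 5.82 ± 0.07 log2 in the AD phenotype and 8.34 ± 0.03 log2 in the AI phenotype (SD, n = 4 each), which is a ratio in log2 of -2.52. Its AD signal lay near the array medians. Nfix, a nuclear factor of neural stem cell quiescence and gliogenesis, averaged 8.18 ± 0.13 log2 in the AD phenotype and 9.07 ± 0.08 log2 in the AI phenotype, a log2 ratio of -0.88.

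Among 35 related neural crest genes, 3 were higher in AD cells and 1 was lower. Crabp1, a retinoic acid binding protein of crest cells, was 3.25-fold higher (8.12 ± 0.08 log2 in the AD phenotype and 6.41 ± 0.07 log2 in the AI phenotype, SD, n = 4 each). Phox2a, the sympathetic lineage factor, was 2.19-fold higher with a log2 ratio of 1.13, and Ngfr, the p75 neurotrophin receptor by which crest stem cells are sorted, was 1.62-fold higher with 0.70. Nrp2, a semaphorin receptor that guides crest cells, was 1.65-fold lower in AD cells, with 9.00 ± 0.08 log2 in the AD phenotype and 9.72 ± 0.02 log2 in the AI phenotype.

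Of 41 related pluripotency and oncofetal genes, 4 were higher in AD cells and none was lower (0 also by the analysis of variance, and 2 toward AI cells at an unadjusted p under 0.05, neither by 1.5-fold). Of the 4, Mycn had a log2 ratio of 1.81, Hmgn5, a nucleosome-binding protein, 1.05, and Igf2bp3, an oncofetal RNA-binding protein, 0.79. The AI signal of Igf2bp3 lay near the array medians, at 5.91 to 6.13 log2. Dlk1, an imprinted gene named after its value was seen, had a log2 ratio of 0.76. Pou5f1, the gene for Oct4 and likewise named after its value was seen, lay at 4.50 to 4.63 log2 in the AD phenotype and at 4.38 to 4.50 log2 in the AI phenotype, below the array medians. Klf2, a relative of Klf4 and also named after its value was seen, had a ratio of -0.52 in log2 (limma adjusted p = 0.00597) and was not called.

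The surface markers related to Prom1 moved in both directions. Of 41 measured, 3 were lower in AD cells and 1 was higher. Cd34, a sialomucin of hematopoietic and vascular progenitors, was lower, with 5.81 ± 0.13 log2 in the AD phenotype and 7.56 ± 0.02 log2 in the AI phenotype (SD, n = 4 each), which is a ratio in log2 of -1.75. Its AD signal lay near the array medians. Cd82, a tetraspanin, had a log2 ratio of -1.89, with AD replicate 4 at 8.20 log2 above the other AD arrays. Procr, the protein C receptor, had -0.63, which was under 1.5-fold after median centring (-0.55) and without AD replicate 1 (-0.56). Abcb1a, a multidrug efflux pump, was higher in AD cells (log2 ratio 0.98).

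Among 42 related genes of proneural commitment and neuronal differentiation, Atoh8, a helix-loop-helix factor, was higher in AD cells (log2 ratio 1.78), and none was lower (0 also by the analysis of variance, and 6 toward AI cells at an unadjusted p under 0.05, none by 1.5-fold). Its AI signal lay below the array medians at 5.04 ± 0.06 log2, against 6.82 ± 0.25 log2 in AD cells (SD, n = 4 each). The other 41 were not called.

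**Figure D4:**
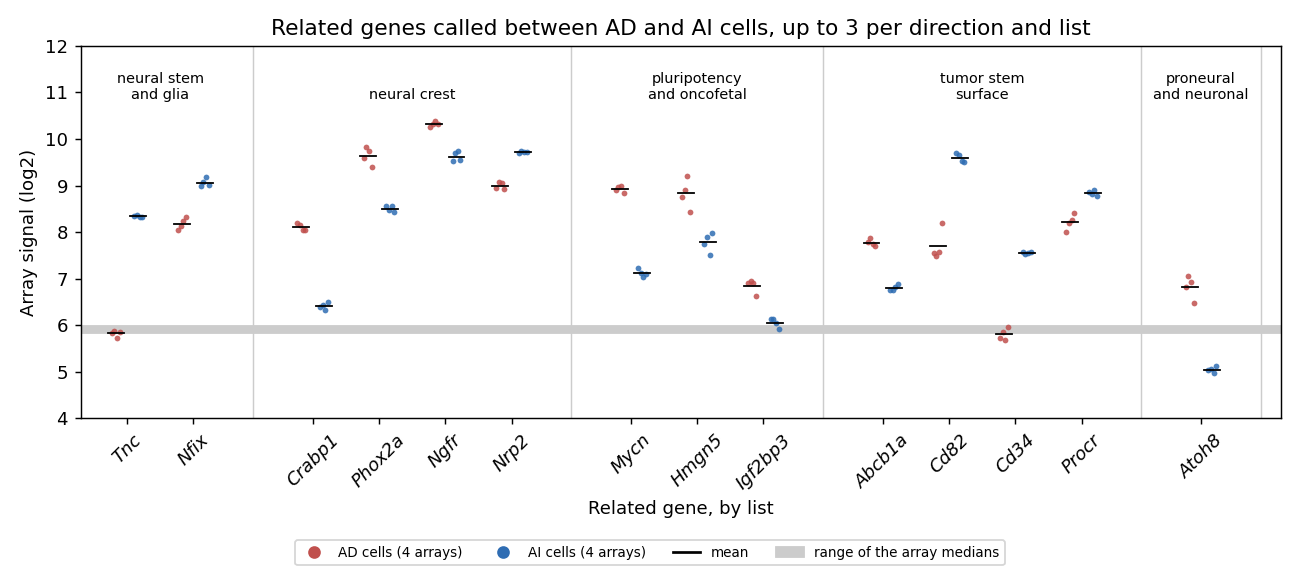
Array signal (log2) of the called related genes, up to 3 per direction and list, with AD cells left of AI cells; dots are the 4 arrays of a phenotype, bars are means and the grey band is the range of the array medians. Tnc and Cd34 lie near the band in AD cells and at 8.34 and 7.56 log2 in AI cells, and Atoh8 lies below it in AI cells only. Igf2bp3 lies near the band in AI cells.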

How the data were processed

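RNA of AD and AI cells was hybridized to Affymetrix mouse Gene ST arrays, 4 for AD and 4 for AI cells. The labels speak of independent cultures and the methods of replicate hybridizations, so the p-values may measure technical spread. The deposited values are log2 signals per transcript cluster that the authors made with GCRMA, in Partek 6.5 per the submitters' notes, while the methods also name other normalizations and a later Partek version. The scanner files were not used here.

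Symbols came from the platform annotation. Of 35556 clusters, 21789 carry 1 symbol, 1621 several and 12146 none usable, and 21698 matched RefSeq by gene number. A gene was read from its brightest single-symbol cluster. AD and AI arrays were compared with lmFit and eBayes of limma 3.58.1 in R 4.3.3, adjusted by Benjamini-Hochberg across the whole array, with calls set at 1.5-fold and an adjusted p under 0.05. Tables and plots were made with Python 3.11.15, pandas 2.3.3, numpy 2.4.6 and matplotlib 3.10.9. The fit was tested on simulated data. The number of arrays limits the precision.

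The members and lists were chosen with earlier results of these data known. All members were described, and up to 3 called genes per direction with the largest log2 ratio were named from each related list. Alternatives were quantile normalization, median centring, the methods' analysis of variance without moderation, a filter on clusters whose mean lay under the 40th percentile, trended and robust moderation, array weights, a replicate block, other thresholds, the mean of a gene's clusters, and leaving out each array. The authors' own comparison columns, fold changes and p-values in a supplementary table, were not used.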

Additional observations from a re-analysis of the deposited data

Results flagged for a closer look

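In 106 gene and phenotype pairs, 4 held an array whose gap to the other 3 exceeded Dixon's 95% critical value, and chance gives about 1 in 20. AD replicate 4 was the array in 3 of the 4. Zeb2 had 8.84 log2 in AD replicate 4, below 9.02 to 9.04 log2 in the other AD arrays. Igf2bp3 had 6.62 log2 in AD replicate 4, below 6.90 to 6.95 log2 in the other AD arrays. Cd82 had 8.20 log2 in AD replicate 4, above 7.49 to 7.58 log2 in the other AD arrays, and its log2 ratio without that array was -2.05. Cd24a had 11.19 log2 in AI replicate 3, below 11.34 to 11.35 log2 in the other AI arrays.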

How the results depend on the processing

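Prom1 stayed called, lower in AD cells, under every alternative run. The 2 called members became 1, Prom1 alone, with quantile normalization, median centring, array weights or a 2-fold threshold, and 7 with no fold threshold. Leaving out single arrays gave 1 to 2, with Klf4 lost without AD replicate 1 or 4 or AI replicate 1, 2 or 3. Over all clusters 6444 passed with no fold threshold, 254 passed at 2-fold, and leaving out single arrays gave 1217 to 1636, beside 1396. The replicate numbers do not pair the arrays (correlations of same-numbered deviations -0.112, 0.078, 0.005 and -0.175), and with the replicate number as a block 1352 clusters and 2 members were called. Klf4 had a log2 ratio of -0.53 with quantile normalization, -0.51 with median centring and -0.58 with array weights, and Procr -0.55 with median centring. The share of calls lower in AD cells was 64.5%, against 47.0% with median centring, which moved the median of all clusters by 0.08.

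The sign turned only for ratios near 0, and the cause was not tested. With median centring the log2 ratio was 0.07 for Vim, 0.03 for Sox2, 0.05 for Sox11, 0.06 for Msi1, 0.01 for Msi2, 0.07 for Nr2e1, 0.04 for Hmga2, 0.08 for Cd24a, 0.01 for Thy1 and 0.03 for Neurod1. With array weights it was 0.00 for Sox11, 0.01 for Msi1, 0.00 for Olig2, -0.03 for Nanog and 0.01 for Cd24a. With quantile normalization it was 0.00 for Nr2e1 and 0.02 for Hmga2. Leaving out single arrays gave -0.03 to 0.01 for Vim, -0.07 to 0.03 for Sox11, -0.05 to 0.03 for Msi1, -0.03 to 0.06 for Slc1a3, -0.02 to 0.07 for Olig2, -0.05 to 0.04 for Nr2e1, -0.07 to 0.14 for Lin28b, -0.06 to 0.01 for Hmga2, -0.02 to 0.10 for Nanog, -0.02 to 0.09 for Sall4 and -0.04 to 0.04 for Cd24a. The mean of a gene's clusters is the same value for each member, which has 1 cluster. For 19 members the dim signal limits what the arrays can show.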
